A study of Mus musculus with 12 samples.

Results

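The nuclear genes of the mitochondrial respiratory chain and the ATP synthase were followed across 4 laser-captured pieces of the mouse hippocampus. Members were taken by gene symbol: names starting with Nduf, with Sdh and a letter from a to d or af, with Uqcr, with Cox4 to Cox8 or with Atp5, plus Cyc1 and Cycs. The rule found 97 of the 30142 genes tested. Of these, 84 code for subunits, 9 are assembly factors of complex I (Ndufaf) or complex II (Sdhaf), and 4 are pseudogenes or no subunit. The subunit genes comprise 6 core and 28 accessory genes of complex I, 4 of complex II, 9 of complex III, 1 of cytochrome c, 12 of complex IV, 16 of the ATP synthase and 8 isoforms known mainly from other tissues or conditions.

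The groups were the dendritic layer (stratum radiatum) of CA2, the cell body layer (stratum pyramidale) of CA2, the dendritic layer of CA1 and the cell body layer of CA1, with 3 arrays for each. The donors of all 4 pieces were 3 males of the Amigo2-EGFP line (strain C57BL/6J), 6 to 8 weeks of age and each from its own litter, with no treatment described. Every group therefore carries the same reporter, a green fluorescent protein that marks CA2 neurons in this line, and there was no group without it. Tissue was captured from frozen sections of 8 µm, and only 5 to 7 ng of RNA was amplified for each array.

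The respiratory chain sits in the inner mitochondrial membrane. Complex I and complex II pass electrons from NADH and succinate to ubiquinone, complex III hands them to cytochrome c, and complex IV passes them to oxygen, while the proton gradient built on the way drives the ATP synthase. Most subunits are coded in the nucleus, translated in the cytosol and imported, and a small set is coded by mitochondrial DNA. Assembly factors help to build a complex and are not part of the finished enzyme. In hippocampal pyramidal neurons, mitochondria lie in the cell body and along dendrites and axons, and glia and vessels of the dendritic layer have their own.

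Values are the deposited log2 expression values, in which a difference of 1 is a 2-fold difference, and group values are means ± SD of 3 arrays. Differences are given as dendritic minus cell body layer or as CA2 minus CA1, with their standard error. A gene counts as called at an adjusted p under 0.05 in limma, a linear model fitted to all 30142 genes with p-values adjusted by the Benjamini-Hochberg method. Precision here is limited by the number of arrays. Array medians ran from 5.68 to 5.88, and the median gene had an SD of 0.129 in the CA1 dendritic layer and of 0.0721 to 0.0929 in both layers of CA2. Of the 84 subunit genes, 83 had a mean above the median feature level of 5.76.

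Some features of the whole array set touch every result. All arrays of CA2 carry run number 907 and all of CA1 run number 938, so the effect of the region and that of the run cannot be told apart where CA2 is set against CA1. Transcripts of oocytes, which are foreign to brain, averaged 7.14 to 7.29 on replicates 2 and 3 of the CA2 dendritic layer and replicate 1 of the CA2 cell body layer, against 5.12 to 5.59 on the other 9 arrays. Features for poly-A control RNAs averaged 9.53 ± 0.14 in the CA2 dendritic layer against 8.66 ± 0.11 in the CA2 cell body layer, and 8.07 ± 0.49 in the CA1 dendritic layer against 10.89 ± 0.20 in the CA1 cell body layer. Hybridization control features averaged 12.53 ± 0.14 in the CA2 dendritic layer against 12.12 ± 0.04 in the CA2 cell body layer. In CA1 they averaged 13.07 ± 0.04 against 12.47 ± 0.03. They stood higher in both dendritic layers, as did several bright members below, and a shift of bright features as a whole was not tested. The labelled regions could be checked by their markers: all 6 CA2 neuron markers were called higher in the CA2 than in the CA1 cell body layer, with a median difference of 2.93. Of the 6 general markers of pyramidal neurons, 5 were called lower in the dendritic layer of each region. Medians over all 6 were -1.07 in CA2 and -0.33 in CA1. The other marker, Camk2a, was called higher in both dendritic layers, by 0.68 in CA2 and 0.71 in CA1. All 8 astrocyte, 8 microglia, 6 endothelium and 5 mural markers were called higher in the dendritic layer of both regions, with medians of 2.04, 2.29, 2.20 and 1.69 in CA2 and of 2.12, 2.67, 2.16 and 1.74 in CA1. In tissue of many cell types, fewer cells of a type and less RNA per cell cannot be told apart.

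Promoter sequences were set beside the expression values because nuclear respiratory factor 1 (NRF1) is a known activator of many of these genes. RefSeq promoters of build GRCm38.p6, 300 bases from 250 before to 50 after the start, matched 76 of the members, 67 of them subunit genes. The letters GCGCANGCG, the core of the NRF1 motif, were searched on both strands and stood in the promoter of 17 of 67 subunit genes (25.4%), of 2 of 8 assembly factors (25%), of 7.03% of all genes and of 17.5% of genes of like mean level. The letters AAGATGGCG, a YY1 motif, stood in 6 of 67 (8.96%), against 1.64% of all genes and 4.11% of genes of like level. The letters TCAAGGTCA, the motif of the estrogen-related receptors, stood in 2 of 67 (2.99%), against 0.466% of all genes and 0.252% of those of like level.

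Stretches of 100 bases from 4 such promoters follow, chosen because the genes share the NRF1 letters (capitals) while their RNA stood on opposite sides of the layers. Cox6a1 and Atp5g2 were higher in both dendritic layers, Ndufaf4 was lower in both, and Cycs was lower in that of CA1. The features used for Atp5g2 and Cycs are placed on other chromosomes than these promoters. The Atp5g2 feature on chromosome 15 was also higher in both dendritic layers, and the Cycs feature on chromosome 6 was lower in both dendritic layers. The CA2 calls of Cox6a1, Atp5g2 and Ndufaf4 were lost without the arrays with oocyte transcripts.
Cox6a1 (chr5:115349039-115349138, minus strand): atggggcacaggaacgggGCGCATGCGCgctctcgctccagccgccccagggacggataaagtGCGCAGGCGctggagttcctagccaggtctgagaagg
Atp5g2 (chr15:102671048-102671147, minus strand): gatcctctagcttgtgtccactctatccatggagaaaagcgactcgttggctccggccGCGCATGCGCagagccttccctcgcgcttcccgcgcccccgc
Ndufaf4 (chr4:24897943-24898042, plus strand): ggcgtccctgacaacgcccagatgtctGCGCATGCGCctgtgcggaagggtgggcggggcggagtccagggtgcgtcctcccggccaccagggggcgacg
Cycs (chr6:50566570-50566669, minus strand): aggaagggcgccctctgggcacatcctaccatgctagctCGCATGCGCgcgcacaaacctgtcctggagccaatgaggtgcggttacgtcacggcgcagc
The first run of capitals in Cox6a1 and those in Atp5g2 and Ndufaf4 are palindromes, found on both strands. The match describes the letters only.

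The subunit genes did not move as a block between the layers. The dendritic layer of CA2 had 20 of them called higher and 16 lower, where 16.2% of all genes tested were called higher and 17.8% lower. In CA1, 16 were called higher and 22 lower, where 28.3% of all genes were called higher and 18.5% lower. The median difference over the subunit genes was 0.07 in CA2 and -0.01 in CA1, against -0.03 and 0.12 over all genes tested. Without the arrays that carry oocyte transcripts, the calls in CA2 came to 6 higher (Cox6b1, Cox6b2, Cox7b2, Cox8a, Ndufa7 and Ndufb9) and 4 lower (Atp5g1, Ndufa9, Ndufa10 and Sdhd), and those in CA1 to 15 and 18. Every other CA2 layer call of a subunit gene given below was lost in that fit. That fit keeps only replicate 1 of the CA2 dendritic layer, and calls in CA2 over all genes tested fell as well. The median difference in CA2 was then 0.15 over the subunit genes and -0.02 over all genes tested. How far the smaller number of arrays accounts for the lost calls was not tested. Under quantile normalization, the calls in CA2 came to 15 higher and 21 lower, so the share of higher calls was 41.7% there, against 55.6% as deposited. The calls in CA1 came to 21 higher and 20 lower, a share of 51.2% higher against 42.1% as deposited.

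Genes of like mean level are a closer yardstick, because brighter genes were called more often. The middle range of the subunit genes, 7.76 to 11.84 log2, held 7547 genes, of which 26.1% were called higher and 41% lower in the CA2 dendritic layer and 26% and 46% in that of CA1. The 66 subunit genes in that range had 11 calls higher and 16 lower in CA2 (16.7% and 24.2%) and 8 higher and 21 lower in CA1 (12.1% and 31.8%). The median difference of the range was -0.13 in CA2 and -0.17 in CA1, and that of its subunit genes was 0.01 and -0.11. The subunit genes of the range thus had fewer calls in either direction than genes of like level, and their differences stayed between -0.66 and 0.82 in CA2 and between -0.76 and 0.64 in CA1. The range was not matched gene by gene: its genes had array medians of 8.58 to 8.79, and all subunit genes 9.87 to 10.05. In the bin from 8 to 9, subunit medians were 0.01 in CA2 and -0.00 in CA1, against -0.17 and -0.20 for other genes. In the bin from 11 to 12 they were 0.11 and 0.13, against 0.39 and 0.34. The order of the medians thus changed with level. These contrasts between lists were not tested.

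**Figure D1:**
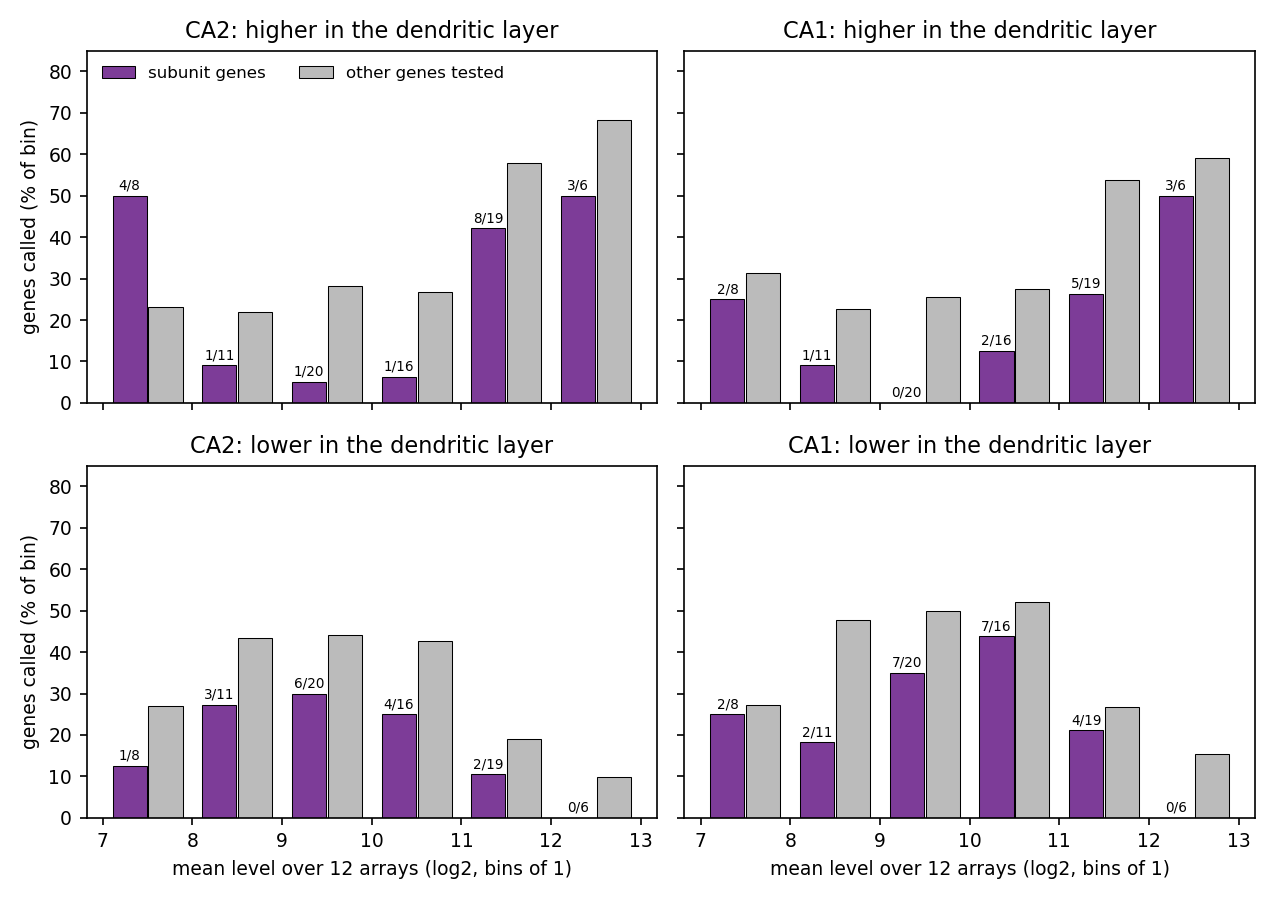
Share of genes called higher (upper panels) or lower (lower panels) in the dendritic layer of CA2 (left) and CA1 (right), by mean level over 12 arrays in bins of 1 log2 unit, for subunit genes (purple, called and total genes printed above each bar) and all other genes tested (grey). In the bin from 9 to 10, 1 of 20 subunit genes was called higher and 6 lower in CA2, and 0 and 7 in CA1, while 28.3% and 44.2% of the other genes in CA2 and 25.6% and 50% in CA1 were; in the bin from 7 to 8, 4 of 8 subunit genes were called higher in CA2.

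The signs of the calls varied by complex. Complex I core genes had 4 of 6 called lower in each region and 0 higher by limma (also 0 at an unadjusted p under 0.05), with medians of -0.30 in CA2 and -0.45 in CA1. Complex IV genes had 5 of 12 called higher and 1 lower in each region, with medians of 0.19 and 0.15. The 8 other isoforms had 5 called higher and 0 lower in each region by limma (6 and 0 at an unadjusted p under 0.05), with medians of 0.43 and 0.39. Complex III was split, with 2 of 9 called higher and 4 lower in CA2 and 3 and 3 in CA1. The ATP synthase had 4 of 16 called higher and 3 lower in CA2 and 1 and 3 in CA1. Mean level differed as well. Array medians were 8.73 to 9.45 for complex I core genes and 11.36 to 11.62 for complex IV genes. In the level bin that starts at 9, 44.2% of other genes were called lower in CA2 and 50% in CA1. The complex I core share was 66.7% in each. In the bins that start at 11 and 12, 57.9% and 68.3% were called higher in CA2. In CA1, 53.9% and 59.2% were, against 41.7% of complex IV genes in each region. The difference between complexes was not tested, nor was the part of mean level in it.

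**Figure D2:**
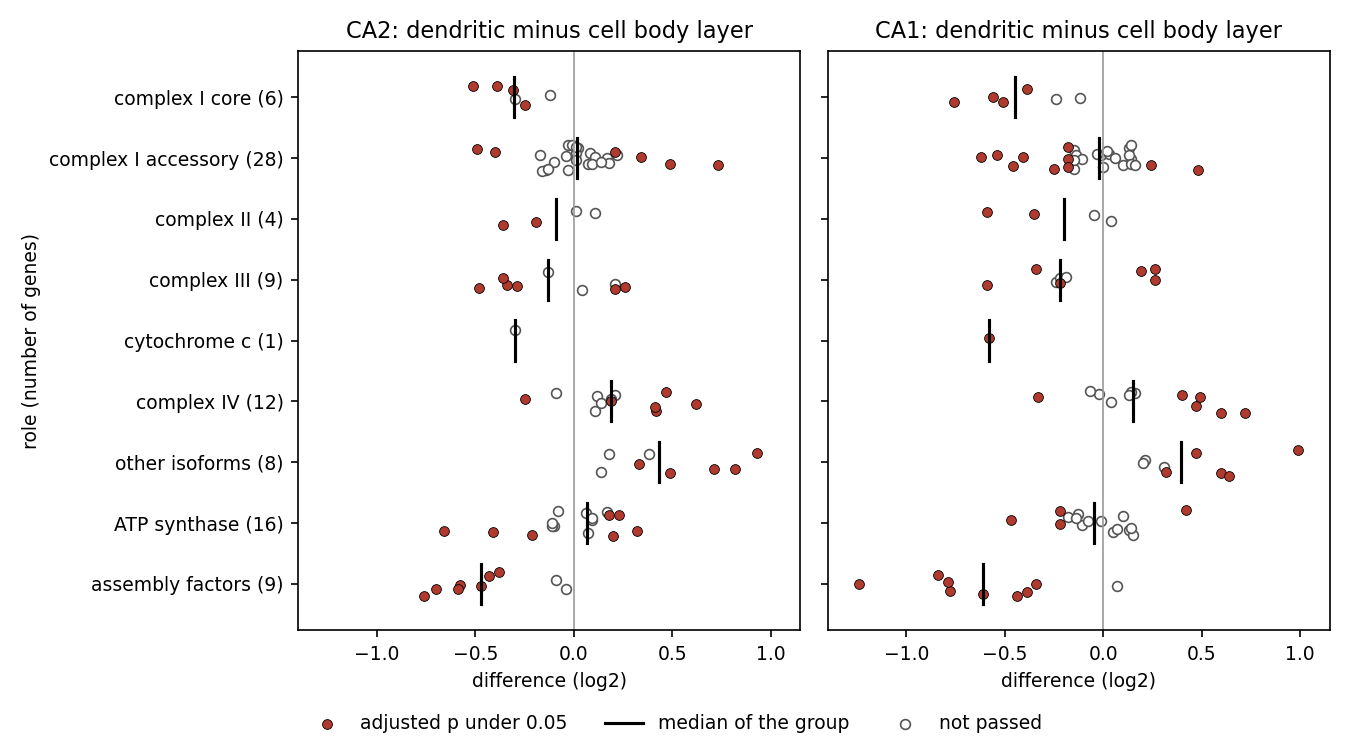
Difference between dendritic and cell body layer (log2, horizontal axis) of each subunit and assembly factor gene in CA2 (left) and CA1 (right), by role with the number of genes. Filled points passed an adjusted p under 0.05 in limma, open points did not, and the vertical bar is the median of the role. The assembly factors lie farthest to the left, with medians of -0.47 in CA2 and -0.61 in CA1, and the other isoforms farthest to the right, with 0.43 and 0.39.

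The core of complex I holds the flavin and iron-sulfur centres that carry electrons from NADH. Ndufs1, its largest iron-sulfur subunit, had 9.56, 9.48 and 9.52 in the CA2 dendritic layer, against 10.03, 10.01 and 10.04 in the CA2 cell body layer. The CA1 values were 8.73, 8.47 and 8.93 in the dendritic layer, against 9.42, 9.50 and 9.48 in the cell body layer. The layers did not overlap in either region, and the difference was -0.51 ± 0.09 in CA2 (limma, adjusted p = 0.0014) and -0.76 ± 0.09 in CA1 (adjusted p = 7.8e-05), a 1.42-fold and a 1.69-fold lower level. The difference in CA2 was -0.45 with an adjusted p of 0.17 without the arrays with oocyte transcripts.

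Ndufv1, which binds NADH and the flavin, was lower by the same amount in both dendritic layers, with 9.06 ± 0.04 against 9.45 ± 0.04 in CA2 and 8.94 ± 0.11 against 9.33 ± 0.02 in CA1. Its difference was -0.39 ± 0.07 in each region (limma, adjusted p = 0.0011 in CA2 and 0.00091 in CA1). Ndufs3, a core subunit of the arm that reaches into the matrix, was lower in both as well, by -0.31 in CA2 and -0.51 in CA1. Ndufs7, which carries the last iron-sulfur cluster before ubiquinone, was called lower in CA2 alone (-0.25), and in CA1 its difference was -0.12. Ndufs8, another iron-sulfur subunit, was not called, with -0.30 ± 0.13 in CA2 and -0.24 ± 0.13 in CA1. The 28 accessory genes, which surround the core, had 4 called higher and 2 lower in CA2 and 2 and 8 in CA1. In CA2 that is 14.3% and 7.14%, against 26.1% and 41% of genes of like level. In CA1 it is 7.14% and 28.6%, against 26% and 46%.

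Among the accessory genes, Ndufa9 and Ndufa10 were lower in both dendritic layers, with -0.40 and -0.49 in CA2 and -0.54 and -0.62 in CA1. Ndufa9 lies near the ubiquinone site. Ndufb9 was the accessory gene that rose most, with 12.01, 12.21 and 12.20 in the CA2 dendritic layer against 11.38, 11.47 and 11.37 in the cell body layer. The CA1 arrays gave 12.12, 12.19 and 12.24 in the dendritic layer against 11.70, 11.67 and 11.73. The layers were apart on every array, with 0.73 ± 0.07 in CA2 (limma, adjusted p = 1.2e-05) and 0.48 ± 0.07 in CA1 (adjusted p = 0.0002). Ndufb8 was called higher in CA1 alone (0.24), and Ndufa1, Ndufa7 and Ndufb11 in CA2 alone (0.34, 0.49 and 0.21).

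Complex II, the succinate dehydrogenase that also works in the citric acid cycle, had 2 of its 4 genes called lower in each region. Sdha, the flavin subunit that oxidises succinate, was nearly level between layers, at 9.32 ± 0.04 against 9.31 ± 0.01 in CA2, and it was not called in CA1 either. Sdhb, the iron-sulfur subunit beside it, was lower in the dendritic layer of CA2 (9.16 ± 0.03 against 9.36 ± 0.04, limma adjusted p = 0.037) and of CA1 (8.97 ± 0.05 against 9.56 ± 0.06, adjusted p = 3.5e-05). With the arrays that carry oocyte transcripts left out, the call in CA2 was lost (-0.26, adjusted p = 0.25), as it was without any 1 array of CA2 or without CA1 cell body replicate 2. Sdhd, a membrane anchor, was lower by -0.36 in CA2 and -0.35 in CA1, while the other anchor, Sdhc, had 0.11 and 0.04 and was not called.

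In complex III, the large subunits and some of the small ones stood on opposite sides. Uqcrc2, a core protein that faces the matrix, had 9.97, 9.81 and 9.95 in the CA2 dendritic layer against 10.40, 10.37 and 10.41 in the cell body layer. In CA1 they were 9.77, 9.73 and 9.77 against 10.31, 10.41 and 10.32. Its layers did not overlap, with differences of -0.48 ± 0.07 in CA2 (limma, adjusted p = 0.0002) and -0.59 ± 0.07 in CA1 (adjusted p = 4.6e-05). Uqcrfs1, the Rieske iron-sulfur protein, was lower by -0.36 and -0.34, and Cyc1, the cytochrome c1 haem protein, by -0.29 and -0.22. Uqcrc1, the other core protein, was called lower in CA2 (-0.34) and had -0.19 in CA1. Uqcrh, the hinge protein, was higher by 0.26 in CA2 and 0.19 in CA1, and Uqcr11, a small subunit, by 0.21 and 0.26.

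Cytochrome c, coded by Cycs, carries electrons from complex III to complex IV. Its feature had 11.29, 11.20 and 11.24 in the CA2 dendritic layer against 11.60, 11.56 and 11.47 in the CA2 cell body layer. In CA1 it had 9.92, 10.61 and 10.44 in the dendritic layer against 10.84, 10.99 and 10.87. The layers did not overlap, but the CA1 dendritic arrays spread widely (SD 0.36), and the difference was called in CA1 (-0.58 ± 0.13, limma adjusted p = 0.0052) and not in CA2 (-0.30 ± 0.13, adjusted p = 0.12), where it turned to 0.12 with the arrays that carry oocyte transcripts left out. This feature is placed on chromosome 19 and the gene on chromosome 6, so it may also read a copy. A dimmer Cycs feature on chromosome 6 was called lower in both regions, with -0.46 ± 0.07 in CA2 (adjusted p = 0.00063) and -0.55 ± 0.07 in CA1 (adjusted p = 0.00016).

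Complex IV, the cytochrome c oxidase, carries its catalytic subunits from mitochondrial DNA, and the nuclear subunits surround them. Cox6a1 had 12.94, 12.94 and 12.98 in the CA2 dendritic layer against 12.50, 12.50 and 12.46 in the cell body layer. In CA1 it had 12.93, 12.81 and 12.90 against 12.18, 12.09 and 12.21. Every dendritic array lay above every cell body array, by 0.47 ± 0.06 in CA2 (limma, adjusted p = 0.00015) and 0.72 ± 0.06 in CA1 (adjusted p = 6.8e-06). The CA2 value was 0.41 with a limma adjusted p of 0.072 when the oocyte-bearing arrays were left out. Cox8a, another small membrane subunit, had 12.17, 12.22 and 12.19 against 11.61, 11.55 and 11.56 in CA2. In CA1, the means were 12.57 ± 0.03 against 11.97 ± 0.03. It was thus 1.54-fold higher in the CA2 dendritic layer (limma, adjusted p = 1.4e-05) and 1.52-fold higher in that of CA1 (adjusted p = 1.7e-05).

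Cox4i1, the main isoform of the subunit through which ATP acts on the enzyme, was higher by 0.42 in CA2 (0.43 with a limma adjusted p of 0.057 without the oocyte-bearing arrays) and 0.47 in CA1. Cox6b1, which faces the intermembrane space, was higher by 0.41 and 0.40, although under quantile normalization its value in CA2 was 0.14 with a limma adjusted p of 0.12. Cox5a, which binds a thyroid hormone metabolite on the matrix side, was the exception of the complex. It was lower in both dendritic layers, with 10.94 ± 0.05 against 11.19 ± 0.03 in CA2 (adjusted p = 0.011) and 10.82 ± 0.10 against 11.16 ± 0.02 in CA1 (adjusted p = 0.0019). Its CA2 value without the oocyte-bearing arrays was -0.23, with a limma adjusted p of 0.32. Cox7a2 and Ndufa4, which was first assigned to complex I, were not called: their differences were 0.11 and -0.09 in CA2 and 0.13 and -0.07 in CA1. Cox7a2l, a factor that joins complexes III and IV, was called higher in CA1 alone (0.49 ± 0.08), with 0.21 ± 0.08 in CA2.

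The isoforms of other tissues were dimmer and lay to the dendritic side. Ndufa4l2, a relative of Ndufa4 known to be induced by low oxygen, had 7.37, 7.14 and 7.29 in the CA2 dendritic layer against 6.31, 6.27 and 6.44 in the cell body layer. In CA1 it had 7.40, 6.87 and 6.99 against 5.91, 6.22 and 6.17. Its layers were well apart, with 0.93 ± 0.13 in CA2 (limma, adjusted p = 0.00027) and 0.99 ± 0.13 in CA1 (adjusted p = 0.00016), the largest rise among the members in each region. Cox7a1, the heart and muscle form of subunit VIIa, was higher by 0.33 in CA2 and 0.64 in CA1. Cox6b2, known from testis, was higher by 0.71 and 0.60, and Cox7b2, also a testis form, by 0.49 in CA2 and 0.47 in CA1. Cox7b2 was the dimmest member, with a mean of 5.21, below the median feature level of 5.76. In the bin from 5 to 6, 9.8% of the other genes were called higher in CA2 and 25.1% in CA1.

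Cox6a2, the heart and muscle form of subunit VIa, was called in CA2 alone. It had 8.70, 8.48 and 8.37 in the CA2 dendritic layer against 7.77, 7.81 and 7.52 in the cell body layer, and in CA1 7.81, 7.28 and 7.98 against 7.34, 7.37 and 7.44. The CA1 layers overlapped, with 0.31 ± 0.16, against 0.82 ± 0.16 in CA2 (limma, adjusted p = 0.0019). The difference between the regions was 0.51 ± 0.22 and was not called (adjusted p = 0.15). Cox4i2, a lung form that is induced by low oxygen, had 0.18 in CA2 and 0.21 in CA1 and was not called. Cox8c, another testis form, was called higher in CA1 alone (0.32). Without the arrays with oocyte transcripts, Ndufa4l2 was at 0.92 in CA2 with an adjusted p of 0.062 and Cox7a1 at 0.15 with 0.72. Markers of vessels and their mural cells rose with these isoforms, as given above, and their part in the result was not tested.

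The ATP synthase joins a catalytic head to a membrane ring, and its catalytic genes differed little between layers. Atp5b, the catalytic beta subunit, stood at 10.37 ± 0.04 in the CA2 dendritic layer against 10.47 ± 0.02, and at 10.14 ± 0.04 against 10.27 ± 0.03 in CA1, with no call. Atp5a1, the alpha subunit, was called lower in CA2 (-0.21 ± 0.06, limma adjusted p = 0.018) and had -0.11 in CA1. Atp5pb (Atp5f1 on the array), part of the stalk that holds the head, was lower in both, by -0.41 in CA2 (-0.31 with a limma adjusted p of 0.24 without the oocyte-bearing arrays) and -0.47 in CA1. Atp5e and Atp5k, both small subunits, were called higher in CA2 alone, by 0.20 and 0.18.

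The membrane ring is made of subunit c, and 3 genes code for the same mature protein. Atp5g1 had 8.87, 8.81 and 8.86 in the CA2 dendritic layer against 9.44, 9.61 and 9.47 in the cell body layer. In CA1 it had 9.38, 9.15 and 9.26 against 9.52, 9.44 and 9.49. The layers did not overlap in either region, and the difference was -0.66 ± 0.08 in CA2 (limma, adjusted p = 6.3e-05) and -0.22 ± 0.08 in CA1 (adjusted p = 0.038). Atp5g2 went the other way, with 0.32 ± 0.09 in CA2 (adjusted p = 0.018) and 0.42 ± 0.09 in CA1 (adjusted p = 0.0033). Its feature is placed on chromosome 7 and the gene on chromosome 15, and the feature on chromosome 15 gave 0.34 and 0.53, both called. Atp5g3, the third of them, had -0.08 in CA2 and was called lower in CA1 (-0.22 ± 0.06). The Atp5g1 call in CA1 did not hold under quantile normalization (-0.07, adjusted p = 0.57).

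Across the roles, 12 subunit genes were called higher in both dendritic layers, which is 60% of the higher calls in CA2 and 75% of those in CA1. Over all genes tested, 76.7% of the higher calls in CA2 and 43.9% of those in CA1 were shared, and over genes of like level 75% and 75.2%. They were Atp5g2, Cox4i1, Cox6a1, Cox6b1, Cox6b2, Cox7a1, Cox7b2, Cox8a, Ndufa4l2, Ndufb9, Uqcr11 and Uqcrh. Another 13 were called lower in both, 81.2% of the lower calls in CA2 and 59.1% of those in CA1, against 68.6% and 65.9% over all genes tested and 82% and 73% over genes of like level. These were Atp5g1, Atp5pb, Cox5a, Cyc1, Ndufa9, Ndufa10, Ndufs1, Ndufs3, Ndufv1, Sdhb, Sdhd, Uqcrc2 and Uqcrfs1. Leaving out the oocyte-bearing arrays, 5 were called higher in both (Cox6b1, Cox6b2, Cox7b2, Cox8a and Ndufb9) and 3 lower (Ndufa9, Ndufa10 and Sdhd). No subunit gene (0) was called in opposite directions, and the comparisons share no arrays.

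**Figure D3:**
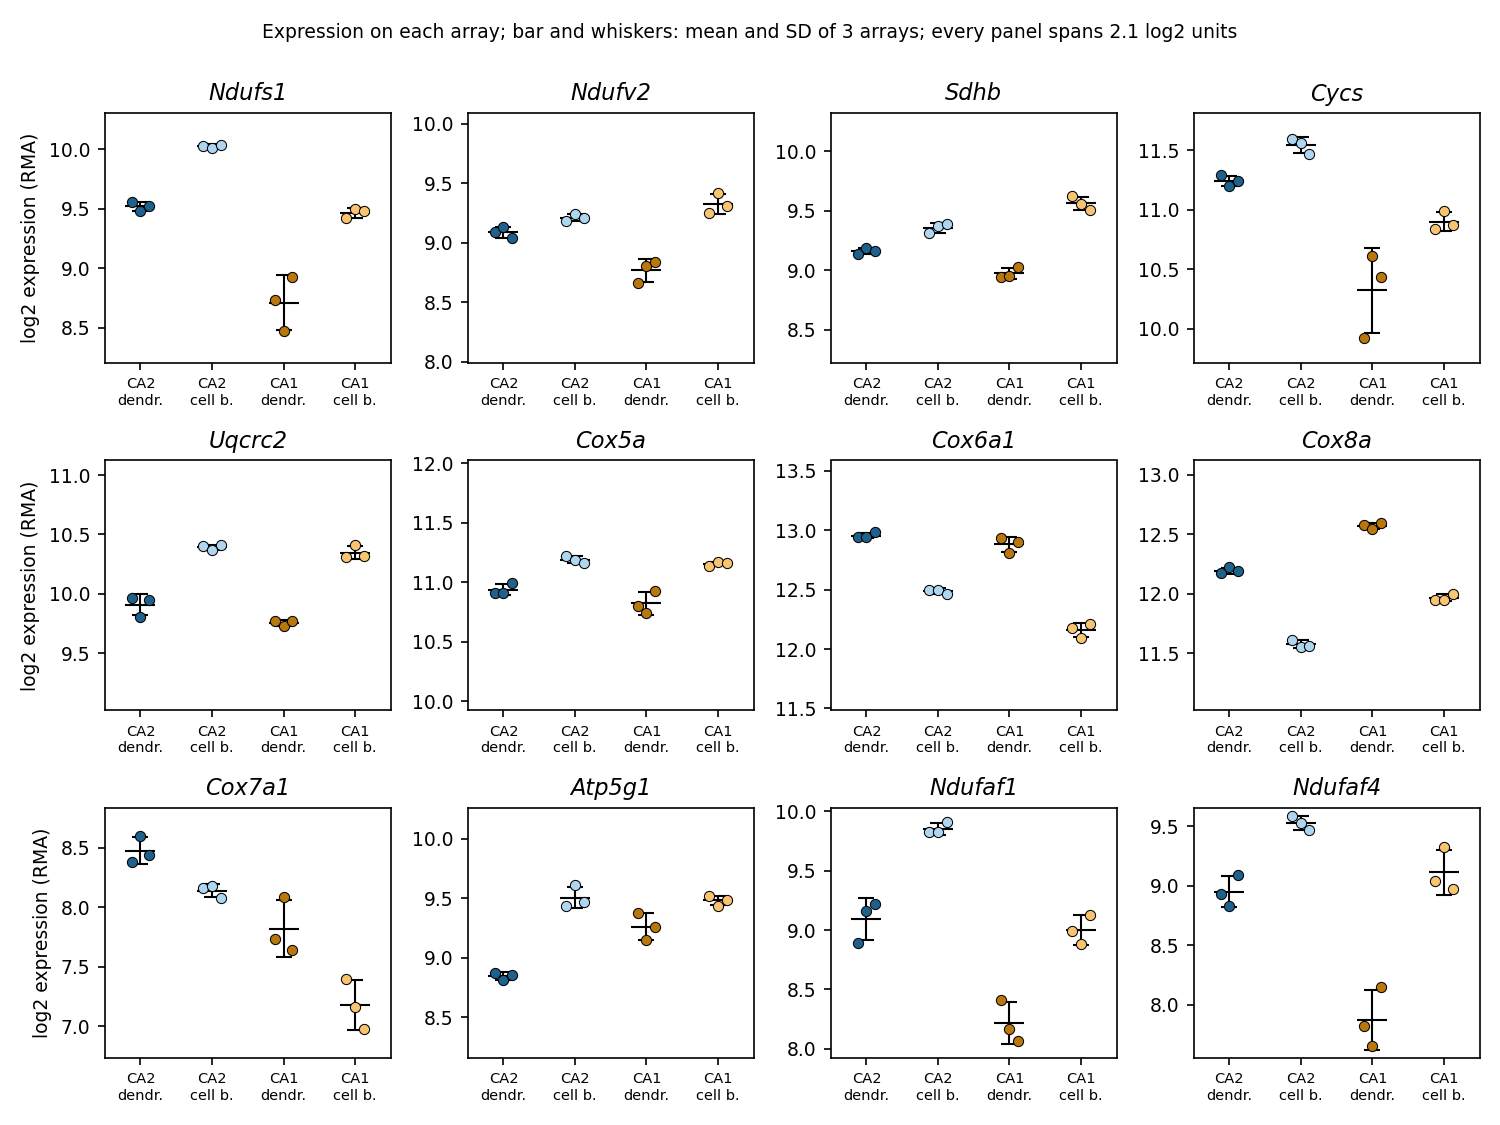
Log2 expression of 12 members on each of the 12 arrays (points) with the mean and SD of 3 arrays (bar and whiskers), for the CA2 dendritic, CA2 cell body, CA1 dendritic and CA1 cell body layers from left to right; every panel spans 2.1 log2 units. The dendritic arrays lie below the cell body arrays of their region for Ndufs1, Uqcrc2, Cox5a and both assembly factors, and above them for Cox6a1, Cox8a and Cox7a1.

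Most of the 9 assembly factors lay on the cell body side in both regions. Of the 9 genes, 7 were called lower in the CA2 dendritic layer and 8 in that of CA1, and 0 were called higher by limma in either region (also 0 at an unadjusted p under 0.05), with medians of -0.47 and -0.61. Among 6844 genes of the same range of mean level (7.36 to 9.04), 37.6% were called lower in CA2 and 40.1% in CA1. Ndufaf1, Ndufaf3, Ndufaf4, Ndufaf5, Ndufaf6, Ndufaf7 and Sdhaf2 were called lower in both. Updated symbols added another assembly factor, not among these 9, which was called higher in each layer comparison. Without the arrays with oocyte transcripts, Ndufaf1, Ndufaf7 and Sdhaf2 kept their CA2 call. The CA2 calls of Ndufaf3, Ndufaf4, Ndufaf5 and Ndufaf6 were lost in that fit, which leaves 1 array in the CA2 dendritic group. Most pyramidal neuron markers fell and glia markers rose beside them, as given above, and the part of these cells in the result was not tested.

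Ndufaf4, needed early in complex I assembly, had 8.93, 8.83 and 9.09 in the CA2 dendritic layer against 9.59, 9.53 and 9.47 in the cell body layer. In CA1 it had 7.82, 7.65 and 8.15 against 9.04, 9.33 and 8.97. The CA1 layers were farther apart: the dendritic level was 2.36-fold lower in CA1 (-1.24 ± 0.13, limma adjusted p = 3.7e-05) and 1.49-fold lower in CA2 (-0.58 ± 0.13, adjusted p = 0.0063). Ndufaf1, which works with Ecsit and Acad9 on the membrane arm of complex I, had 8.89, 9.16 and 9.22 against 9.82, 9.82 and 9.91 in CA2. In CA1, Ndufaf1 had 8.41, 8.17 and 8.07 against 8.99, 8.88 and 9.13, and its difference was much the same in CA2 (-0.76 ± 0.11) and CA1 (-0.78 ± 0.11). Ndufaf5 and Ndufaf7, enzymes that modify core subunits, were lower by -0.59 and -0.70 in CA2 and by -0.84 and -0.61 in CA1. Sdhaf1, an iron-sulfur factor of complex II, was not called, with -0.09 in CA2 and 0.07 in CA1, while Sdhaf2, which attaches the flavin to Sdha, was lower by -0.47 and -0.44.

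Assembly factors that the symbols do not catch were mostly called lower where they were called. Of 41 such genes listed, 34 were measured. In the CA2 dendritic layer 18 were called lower and 3 higher, and in that of CA1 17 and 1, with medians of -0.26 and -0.20. Over all genes tested, 17.8% were called lower in CA2 and 18.5% in CA1. In the level range of the 9 factors above, 37.6% and 40.1% were, with a median of -0.11 in each region. Some of the 34 genes lay outside that range, and the contrast was not tested. Ttc19, a complex III factor, was lower by -1.27 in CA2 and -1.05 in CA1, and Lrpprc, which stabilises mitochondrial mRNAs, by -0.55 and -0.78. Coa5, a complex IV factor, was called higher in both regions, by 0.38 and 0.83. Cox20, another complex IV factor, was called higher in CA2 (0.38) and lower in CA1 (-0.33), with a called interaction of 0.71 ± 0.17 (limma, adjusted p = 0.025).

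The subunits coded by mitochondrial DNA stood on the dendritic side. Of the 13 such genes, 5 had a feature with 1 symbol, and all 5 were called higher in the dendritic layer of both regions, with medians of 0.56 in CA2 and 0.67 in CA1. The gene mt-Nd2, a complex I subunit, was higher by 1.25 in CA2 and 1.06 in CA1. The gene mt-Co1, the catalytic subunit of complex IV, was higher by 0.53 and 0.41. Nuclear subunits of the same complexes did not share this sign throughout, as Ndufs1 and Cox5a above show. The mitochondrial features are bright, at 11.54 to 12.61 per array on average over the 5 genes. Genes above 12 were often called higher: in the bin from 12 to 13, 68.3% of the other genes were in CA2 and 59.2% in CA1. An exception was mt-Co2, dimmer with group means of 9.43 to 10.72, which was higher by 0.61 in CA2 and 1.25 in CA1. In the bin from 9 to 10, 28.3% of the other genes were called higher in CA2 and 25.6% in CA1.

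Whether a layer difference was itself another in CA2 than in CA1 was tested as an interaction, which is free of a run shift equal in both layers. Of the 84 subunit genes, 3 were called with a dendritic minus cell body difference higher in CA2 than in CA1 and 1 with a lower one, where 4.81% and 6.81% of all genes were called. Ndufv2, a core iron-sulfur subunit of complex I, had 9.09, 9.13 and 9.04 in the CA2 dendritic layer against 9.18, 9.24 and 9.21, and in CA1 8.66, 8.80 and 8.84 against 9.25, 9.42 and 9.31. Its layers were apart in both regions but by far more in CA1, with -0.12 in CA2, -0.56 in CA1 and an interaction of 0.44 ± 0.09 (limma, adjusted p = 0.015). Sdhb had an interaction of 0.40 ± 0.09 (adjusted p = 0.021) and Ndufa7, an accessory subunit, of 0.35 ± 0.09 (adjusted p = 0.041). Atp5g1 had -0.44 ± 0.11 (adjusted p = 0.029). No assembly factor (0 of 9) was called by limma, 4 had an unadjusted p under 0.05, and Ndufaf4 came nearest with 0.66 ± 0.19 and an adjusted p that rounds to 0.05.

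Without the arrays with oocyte transcripts, limma called 0 of the subunit genes in the interaction, and 10 had an unadjusted p under 0.05. The values for the 4 genes were then 0.56 for Ndufv2, 0.33 for Sdhb, 0.48 for Ndufa7 and -0.56 for Atp5g1. Under quantile normalization, 2 were called higher and 3 lower, so higher calls made 40% of the total there and 75% as deposited. CA2 neuron markers had a median interaction of -2.47, with all 6 called, and their part in these results was not tested.

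Between the regions, more subunit genes were called higher in CA2 than lower, and the share called higher was near that of genes of like level. In the cell body layer, 16 of 84 were called higher and 7 lower (19% and 8.33%), where 10.6% of all genes were called higher and 10.5% lower. The dendritic layers had 25 called higher and 6 lower (29.8% and 7.14%), where 11.6% of all genes were higher and 18.6% lower. Among genes of like mean level, 23.3% and 20.1% were called higher and lower in the cell body layer and 28.8% and 19.3% in the dendritic layer. The 66 subunit genes in that range had 14 higher and 5 lower in the cell body layer (21.2% and 7.58%) and 22 and 4 in the dendritic layer (33.3% and 6.06%). This contrast between lists was not tested either. The split depends on the centring of the arrays. With medians aligned, the all-gene median changed by about 0.1, to 0.12 in the cell body layer (0.02 as deposited) and to -0.00 in the dendritic layer (-0.11 as deposited). Subunit calls were then 27 higher and 4 lower in the cell body layer (87.1% higher, against 69.6% as deposited) and 40 and 2 in the dendritic layer (95.2%, against 80.6%). Quantile normalization gave 28 and 5 in the cell body layer (84.8% higher). Without the arrays with oocyte transcripts, 10 and 4 were called in the cell body layer and 4 and 0 in the dendritic layer, where limma gave 25 an unadjusted p under 0.05. A fit of the 2 dendritic groups alone called 8 and 2.

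Cycs, for cytochrome c, was 1.56-fold higher in the CA2 than in the CA1 cell body layer (0.64 ± 0.13, limma adjusted p = 0.0065) and 1.89-fold higher in the dendritic layer (0.92 ± 0.13, adjusted p = 0.001), and no CA2 array overlapped with the CA1 arrays of its layer. Its feature on chromosome 6 gave 0.55 and 0.64, both called. Ndufs1 was higher in CA2 by 0.56 ± 0.09 in the cell body layer and 0.81 ± 0.09 in the dendritic layer, and Ndufa9 by 0.58 and 0.72. Sdha was higher by 0.31 and 0.37, and its arrays did not overlap between regions, but its call in the dendritic layer was lost without the oocyte-bearing arrays (0.27, limma adjusted p = 0.19). Without the arrays with oocyte transcripts, Cycs (0.50 and 1.20), Ndufs1 (0.55 and 0.86) and Ndufa9 (0.59 and 0.59) were still called in both layers.

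Cox7a1 had 8.16, 8.18 and 8.08 in the CA2 cell body layer against 7.40, 7.16 and 6.98 in that of CA1, and 8.38, 8.60 and 8.44 in the CA2 dendritic layer against 7.73, 8.09 and 7.64. The regions were apart in both layers, by 0.96 ± 0.11 in the cell body layer (limma, adjusted p = 0.00017) and 0.65 ± 0.11 in the dendritic layer (adjusted p = 0.0022). Without the oocyte-bearing arrays, the dendritic value was 0.49 with a limma adjusted p of 0.16. Cox6b1 was higher in CA2 by 0.44 and 0.45. Cox6a2 was called in the dendritic layer alone (0.83), with 0.32 in the cell body layer. Cox8a was lower in CA2 in both layers, by -0.39 and -0.38. Ndufb10, an accessory subunit of complex I, was lower in CA2 in the cell body layer (-0.46) and had -0.14 in the dendritic layer.

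In all, 11 subunit genes were called higher in CA2 in both layers, 68.8% of those in the cell body layer and 44% of those in the dendritic layer. The like shares were 47.5% and 43.6% over all genes tested and 60.5% and 48.9% over genes of like level. They were Atp5b, Cox6b1, Cox7a1, Cycs, Ndufa9, Ndufa10, Ndufb3, Ndufs1, Sdha, Sdhd and Uqcrfs1. Cox8a and Ndufa3 were called lower in both. With the oocyte-bearing arrays left out, 4 were called higher in both layers (Cox6b1, Cycs, Ndufa9 and Ndufs1), while limma called 0 lower in the dendritic layer. Sdhb was the 1 subunit gene called in opposite directions, with -0.21 ± 0.06 in the cell body layer and 0.19 ± 0.06 in the dendritic layer, and both of its calls were lost without the arrays with oocyte transcripts and without any 1 array of the groups compared, except CA1 dendritic replicate 3 (0.22 in the dendritic layer). The layers share no arrays but share the runs.

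Among the assembly factors, 2 were called higher and 1 lower in the CA2 cell body layer and 5 and 1 in the CA2 dendritic layer. That is 22.2% and 11.1% in the cell body layer and 55.6% and 11.1% in the dendritic layer, against 20.4% and 17.2% and against 24% and 18.9% of the genes in their range of level. Ndufaf1 was higher by 0.85 ± 0.11 (limma, adjusted p = 0.00048) and 0.87 ± 0.11 (adjusted p = 0.00058), and Ndufaf7 by 0.51 and 0.42. The dendritic call of Ndufaf1 was lost without the oocyte-bearing arrays (0.58, limma adjusted p = 0.076). Ndufaf4 was 2.11-fold higher in the CA2 dendritic layer (1.08 ± 0.13, adjusted p = 0.00047) and was not called in the cell body layer (0.42 ± 0.13, adjusted p = 0.052). Ndufaf3 was lower in CA2 in both layers, by -0.44 and -0.48, and its dendritic call was lost in the same way (-0.29, limma adjusted p = 0.21). Of the 34 other assembly factors, 13 were called higher and 2 lower in the cell body layer and 13 and 1 in the dendritic layer, where 10.6% and 10.5% and, in the dendritic layer, 11.6% and 18.6% of all genes tested were. Oligodendrocyte markers also were higher in CA2, 5 of 6 in the cell body layer and 4 of 6 in the dendritic layer, with medians of 0.44 and 0.40, and microglia markers were lower in the CA2 dendritic layer, 6 of 8 with a median of -0.34. Pyramidal neuron markers were lower there as well, 4 of 6 with a median of -0.41. Endothelium markers were higher, 3 of 6 in the cell body layer (median 0.35) and 4 of 6 in the dendritic layer (0.42), and of 8 interneuron markers 4 were higher and 2 lower in the dendritic layer (0.37). The part of these cells in the region differences of subunits and assembly factors was not tested.

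**Figure D4:**
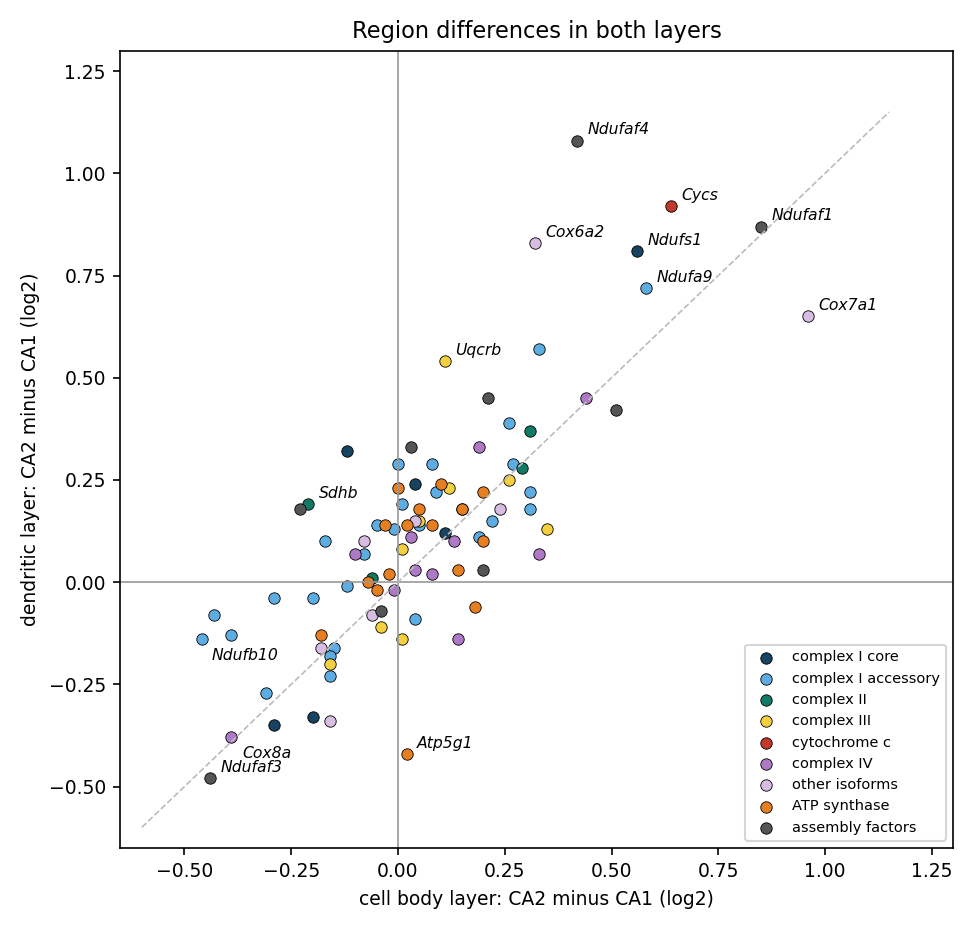
CA2 minus CA1 difference (log2) of each subunit and assembly factor gene in the cell body layer (horizontal axis) and the dendritic layer (vertical axis), coloured by role; the dashed line marks equal differences. Ndufaf1, Cycs, Ndufs1, Ndufa9 and Cox7a1 lie high in both layers, Ndufaf4 lies higher in the dendritic layer (1.08) than in the cell body layer (0.42), and Cox8a and Ndufaf3 lie low in both.

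The 4 remaining members were reported apart. Atp5l-ps1 and Atp5l2, which was set apart by its symbol, were bright, at 11.11 ± 0.05 and 11.43 ± 0.11 in the CA2 dendritic layer, and neither was called in any comparison. Atp5c1-ps was called in the cell body layer between regions (0.43). Dmac2, named Atp5sl on the array and an assembly factor of complex I, was lower in the CA2 dendritic layer than in the CA2 cell body layer (-0.27) and than in the CA1 dendritic layer (-0.26). Atp5l, Ndufb4b and Cox5b have close copies or pseudogenes, and their features may read several of them.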

How the data were processed

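The deposited values are log2 expression values per array feature, which the authors computed by RMA, a robust average over a gene's probes, per the submitters' processing notes. The software and whether both runs were normalized together: not given in the sources used here. The table held 72688 features, of which 30604 had 1 gene symbol in the platform annotation. Entrez identifiers matched 22818 of these to RefSeq and changed 827 symbols. The feature with the highest mean was kept for each gene, which left 30142 genes. Members with several symbols on 1 feature (4 features) were not analysed here. Features and genes lay on the same chromosome in 99.6% of 22625 cases.

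Genes were tested two-sided with limma 3.58.1 in R 4.3.3 (lmFit, eBayes) on 12 arrays, with a mean for each of 4 groups and a block for the replicate number, which leaves 6 residual degrees of freedom, with Benjamini-Hochberg adjustment over the 30142 genes. The code was tested on simulated data.

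Members, role groups, marker lists and motifs were chosen with earlier results of these data known. Genes of like level lay between the 10 and 90 percentiles of the subunit genes' means. Full statistics went to the 6 largest rises and falls called with the same sign in all 3 pairs and to 20 members named whatever their value. Alternatives were no block, quantile normalization, median centring, a filter on dim genes, every feature on its own, 2 groups alone, array weights, updated symbols, each array left out, and the arrays with oocyte transcripts left out. The feature on the gene's own chromosome was added after seeing the data.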

Additional observations from a re-analysis of the deposited data

Results flagged for a closer look

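The layer difference of 4 subunit genes was another in CA2 than in CA1 by the limma interaction test over 30142 genes. It was 0.44 for Ndufv2, 0.40 for Sdhb, 0.35 for Ndufa7 and -0.44 for Atp5g1 (CA2 minus CA1, log2), and in each the 3 pairs of equal replicate number had 1 sign. For Ndufv2 and Sdhb, the dendritic layer was farther below the cell body layer in CA1, for Ndufa7 it was farther above it in CA2, and for Atp5g1 farther below it in CA2. Leaving out 1 array ended the call of Ndufv2 in 1 of 12 cases, of Sdhb in 5, of Ndufa7 in 10 and of Atp5g1 in 9, with the values staying between 0.40 and 0.48, 0.35 and 0.44, 0.29 and 0.39, and -0.50 and -0.36. None of the 4 was called without the arrays with oocyte transcripts, where the limma adjusted p was 0.096 for Ndufv2, 0.25 for Sdhb, 0.13 for Ndufa7 and 0.12 for Atp5g1.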

How the results depend on the processing

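Of 85 calls of named members, 41 held under every alternative and 0 changed sign. Without the arrays with oocyte transcripts, which leaves 1 array in the CA2 dendritic group that is assumed to vary like the others, 45 held. Counts below are higher and lower calls of subunit genes unless assembly factors are named. Cell body layer and dendritic layer stand for CA2 against CA1 in that layer. Those arrays left out gave 6 and 4 for the CA2 layers (3 assembly factors lower), 0 and 0 for the interaction, 10 and 4 for the cell body layer and 4 and 0 for the dendritic layer (assembly factors 3 and 0). Of the assembly factors, 1 was called higher in the interaction with the filter on dim genes and with array weights. Quantile normalization gave 3 lower in the interaction and 28 higher in the cell body layer (4 assembly factors). Median centring gave 27 and 4 there (5 assembly factors) and 40 and 2 in the dendritic layer. Testing every feature gave 0 lower in the interaction and 16 and 3 in the dendritic layer, 2 groups alone 8 and 2 there (3 assembly factors), and array weights 3 lower there, 12 lower in the cell body layer and 5 assembly factors higher, 4 with the filter on dim genes. Updated symbols added 1 assembly factor, called higher in each layer comparison. Leaving out 1 array gave 13 to 16 higher and 15 to 25 lower for the CA1 layers and 13 to 22 and 12 to 17 for the CA2 layers, with 13 higher without CA2 cell body replicate 1 or 3. In the interaction it gave 0 to 6 higher, with 6 without CA1 dendritic replicate 3, 0 without CA1 cell body replicate 2, and 1 without CA1 cell body replicate 1, CA2 cell body replicate 1 or 2 or CA2 dendritic replicate 2. The lower call of the interaction (0 to 1) was lost without any array except CA1 dendritic replicates 2 and 3 and CA2 cell body replicate 1, and assembly factors (0 to 2 higher) reached 2 without CA1 dendritic replicate 3 and 1 without CA1 cell body replicate 3. The cell body layer had 7 to 18 higher, with 10, 10 and 8 without CA1 cell body replicates 1, 2 and 3 and 7 and 9 without CA2 cell body replicates 2 and 3. It had 4 to 8 lower, with 4 without CA1 cell body replicate 1 or CA2 cell body replicate 3. Its assembly factors had 2 to 4 higher, 4 without CA1 dendritic replicate 3, and 0 to 1 lower, 0 without CA1 cell body replicate 2 or CA2 cell body replicate 1. The dendritic layer had 13 to 29 higher, with 16 and 13 without CA1 dendritic replicates 1 and 2 and 14 and 15 without CA2 dendritic replicates 1 and 2, and 3 to 6 lower, with 3 without CA2 dendritic replicate 2.

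The values that changed sign were all of genes not called. Quantile normalization gave, in CA1 layers, Sdha 0.10, Cox7a2 -0.03 and Atp5b 0.05, in CA2 layers Cox7a2 -0.14, in the cell body layer Cyc1 0.03 and Cox4i2 0.01, and in the dendritic layer Cox4i1 -0.03. Median centring gave Sdha -0.03 (CA2 layers), Cyc1 0.06 and Cox4i2 0.04 (cell body layer) and Cox4i2 0.03 (dendritic layer). Without the arrays with oocyte transcripts, Sdha was -0.12, Cycs 0.12 (-0.30 as deposited) and Atp5g3 0.05 in CA2 layers. The feature on its own chromosome gave Atp5g2 -0.11 in the dendritic layer. With 1 array left out, Sdha ran from -0.08 to 0.01 (CA1) and -0.03 to 0.05 (CA2), Uqcrc1, Cox4i2 and Atp5g1 in the cell body layer reached -0.03, 0.02 and -0.06 (Atp5g1 up to 0.09), and Cox4i1 and Atp5g2 in the dendritic layer -0.00 and -0.06. Causes were not tested. Signal over background limits the dim isoforms, such as Cox8b with SDs of 0.16 to 0.51.

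The replicate number was a block in the model, although no label says that a number is a mouse. Residuals about the group mean correlated at -0.346 to 0.132 between equally numbered arrays, over 0.1 in 1 of 18 cases, so the numbers are not shown to pair the arrays. Without the block, subunit calls were 18 and 24 for the CA1 layers, 21 and 16 for the CA2 layers, 4 and 1 for the interaction, 17 and 8 for the cell body layer and 29 and 8 for the dendritic layer, and 1 assembly factor was called higher in the interaction.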
